A study of Mus musculus with 100 samples.

Results

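Peg10 and Mest lie in separate imprinted domains of mouse chromosome 6, and 8 genes of these domains were followed here out of 25965 genes in the expression table. The 5 genes Casd1, Sgce, Peg10, Ppp1r9a and Asb4 were taken from the Peg10 domain, and the 3 genes Mest, Copg2 and Klf14 from the Mest domain. The rule was their name and position, with no threshold on a measured value. Imprinted genes are transcribed mainly from the chromosome of 1 parent, and DNA methylation laid down in the egg or the sperm marks which copy is silent. In the Peg10 domain a region methylated in the egg covers the shared promoter of Peg10 and Sgce, so both are normally transcribed from the paternal copy, while Asb4 and Ppp1r9a have been reported as maternally biased in some tissues. In the Mest domain the egg-derived methylation covers the Mest promoter, and Mest is paternally expressed in most embryonic tissues.

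The RNA-seq libraries came from F1 hybrid cells with a C57BL/6J (BL6) mother and a Mus musculus castaneus (CAST) father, in which sequence differences between the strains assign reads to the maternal (BL6) or paternal (CAST) copy. The 6 groups of 3 biological replicates were female MEFs (mouse embryonic fibroblasts of E13.5 embryos, passage 2), 2 female iPSC lines (F KSR2, F KSR4), 2 male ones (M KSR3, M KSR5), and TX 2i ESCs. All MEFs and iPSCs carried the i4F transgenes of the BL6 mother, a doxycycline-inducible cassette of Oct4, Sox2, Klf4 and c-Myc with the rtTA gene in the Rosa26 locus. The iPSCs were induced with doxycycline for 12 days in medium with Knockout Serum Replacement (KSR) and then kept without it, and the TX 2i ESCs, a female ESC line of the same cross direction, grew with inhibitors of MEK and GSK3. Each iPSC line is 1 colony, picked onto feeder cells and kept to about day 50, and the MEFs of each sex came from a single embryo, so sex, embryo and clone cannot be told apart. RNA of male MEFs was not analysed here, so male lines are set against female MEFs. With no cross in the other direction, parent of origin and strain cannot be told apart either. F KSR2 holds chromosome 6 of maternal origin and is described apart from the other lines.

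Each library held between 13183036 and 17921280 reads on genes (median 15722711), of which 17.7 to 19.9% could be assigned to 1 parent. Levels are given as log2 RPM, reads scaled to a common library total, which is larger than the count of reads on genes. Reads of a single copy are scaled to the reads on genes instead, so the scale of these units differs by library. The maternal share is the BL6 part of a gene's allelic reads, with 95% Wilson intervals that cover counting error only. The summed level of 15 fibroblast markers was 35488 to 40754 RPM in the MEFs and 581 to 1850 RPM in all other libraries, 0 to 6 of the 15 being without a read there. The 10 pluripotency markers summed to 1.40 to 2.29 RPM in the MEFs and to 3974 to 8374 RPM elsewhere. Over the 1321 other genes of chromosome 6 the summed maternal share was 54.2 to 54.5% in the MEFs, 52.0 to 53.0% in F KSR4, M KSR3 and M KSR5, and 48.7 to 49.7% in TX 2i ESCs. In F KSR2 it was 98.6%, 98.7% and 93.3% in replicates 1, 2 and 3. F KSR2 replicate 3 thus stood apart from the other libraries of its line, and the values that it moves most are also given without it.

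In the table, on GRCm38, Peg10 (ENSMUSG00000092035) lies at chr6:4747306-4760517 on the plus strand and Sgce (ENSMUSG00000004631) at chr6:4674350-4747204 on the minus strand, with 101 bases between their starts. Casd1 is at chr6:4600840-4643381, Ppp1r9a at chr6:4902917-5165661 and Asb4 at chr6:5383386-5433022. Mest (ENSMUSG00000051855) lies at chr6:30723547-30748455 on the plus strand, Copg2 at chr6:30747554-30896794 on the minus strand, and Klf14 at chr6:30956021-30958990. Mest and Copg2 overlap by 902 bases at their ends, and the Copg2 entry carries the identifier of Mest. Reads were counted by strand, which separates this pair.

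Promoter windows of 250 bases before to 50 bases after the start site were held in RefSeq (GRCm38.p6) for 5 of the 8 genes. Of 10 such windows, 4 are shown, with each CpG, the dinucleotide that is methylated, in capitals. They are that of Mest at the promoter that carries the maternal methylation mark, and 1 each of Copg2, Casd1 and Asb4. In MEFs these last, nearby genes had no paternal bias.
Mest, chr6:30737800-30738099, plus strand: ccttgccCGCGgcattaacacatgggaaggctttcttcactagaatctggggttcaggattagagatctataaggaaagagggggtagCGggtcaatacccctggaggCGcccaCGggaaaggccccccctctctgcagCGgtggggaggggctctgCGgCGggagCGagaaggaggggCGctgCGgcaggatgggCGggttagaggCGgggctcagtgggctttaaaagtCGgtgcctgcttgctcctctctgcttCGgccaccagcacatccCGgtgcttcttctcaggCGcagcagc
Copg2, chr6:30896745-30897044, minus strand: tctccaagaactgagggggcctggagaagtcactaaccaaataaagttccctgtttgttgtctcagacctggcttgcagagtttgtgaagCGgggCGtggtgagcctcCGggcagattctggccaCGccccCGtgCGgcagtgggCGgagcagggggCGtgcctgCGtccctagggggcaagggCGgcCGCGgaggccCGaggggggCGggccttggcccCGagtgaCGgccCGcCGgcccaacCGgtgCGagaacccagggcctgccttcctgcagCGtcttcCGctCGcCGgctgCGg
Casd1, chr6:4600661-4600960, plus strand: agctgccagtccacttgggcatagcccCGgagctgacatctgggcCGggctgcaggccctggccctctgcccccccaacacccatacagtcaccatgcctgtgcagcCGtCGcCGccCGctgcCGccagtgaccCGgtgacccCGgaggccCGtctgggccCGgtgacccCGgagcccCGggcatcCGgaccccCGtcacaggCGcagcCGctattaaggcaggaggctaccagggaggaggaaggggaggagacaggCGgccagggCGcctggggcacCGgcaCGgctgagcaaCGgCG
Asb4, chr6:5383136-5383435, plus strand: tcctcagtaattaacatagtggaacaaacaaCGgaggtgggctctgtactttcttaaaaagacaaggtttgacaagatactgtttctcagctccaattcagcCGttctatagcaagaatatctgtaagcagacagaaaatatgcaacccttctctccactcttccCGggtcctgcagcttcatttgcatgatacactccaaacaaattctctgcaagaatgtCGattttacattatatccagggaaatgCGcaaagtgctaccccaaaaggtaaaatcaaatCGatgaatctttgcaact

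The Mest window shown held 17 CpGs, that of Copg2 25, that of Casd1 23 and that of Asb4 6, against a median of 7 over 32851 promoter windows of the same length. The zinc-finger protein ZFP57, which keeps imprints methylated, binds the methylated hexamer TGCCGC. On both strands together it occurred 2 times in the Mest window shown, 1 time each in those of Copg2 and Casd1, and 0 times in that of Asb4, and 11.6% of all windows held it at least once. Of the windows not shown, a Mest window 3 bases further on held the same 17 CpGs and 2 matches, and an upstream Mest window held 8 CpGs and 0 matches. Second windows of Casd1 and Asb4 held 5 and 8 CpGs and those of Ppp1r9a 10 and 48, with 0 matches each. A match of these letters is a description of the sequence and says nothing of binding.

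Peg10 is a gene derived from a retrotransposon and needed for the placenta. It was the most abundant of the 8 genes per length in every library of F KSR4, M KSR3, M KSR5 and TX 2i ESCs. In F KSR2 it was so in replicates 2 and 3 and not in replicate 1, and its mean came first only with replicate 3 included. In the MEFs it stood at log2 RPM 7.63, 6.95 and 6.73 in replicates 1, 2 and 3. In F KSR4 it stood at 11.11, 7.63 and 9.26, the widest spread of any group, its replicate 2 equal to the highest MEF library. M KSR3 lay at 8.68, 8.91 and 8.83 and M KSR5 at 9.86, 9.78 and 9.39, all above the MEFs. F KSR2 lay at 7.93, 8.29 and 9.64, and TX 2i ESCs at 8.47, 7.98 and 8.02. Against the MEFs Peg10 rose by 2.23 on the log2 scale in F KSR4 (limma, SE 0.58, adjusted p = 0.0028), by 1.71 for M KSR3 (adjusted p = 0.015) and by 2.57 for M KSR5 (adjusted p = 0.00086). In F KSR2 the difference was 1.52 (limma adjusted p = 0.029), and without its replicate 3 it was 1.01 (adjusted p = 0.16). It also lost the call without MEF replicate 2 or 3 (limma adjusted p = 0.063 and 0.081). With all libraries kept, it lost the call without the filter on low values (limma adjusted p = 0.060). In TX 2i ESCs the difference was 1.06 (95% interval -0.17 to 2.29, limma adjusted p = 0.12), which passed without F KSR4 replicate 1 or 2 (adjusted p = 0.029 and 0.033). Against MEFs limma called 67.0% of all genes tested for F KSR2, 65.8% for F KSR4, 67.6% for M KSR3, 67.9% for M KSR5 and 66.5% for TX 2i ESCs. Of the 8 genes, 6 were called in each of these groups, a share near that background. Their median log2 difference was -1.15 to 0.03 over the 5 groups, against 0.08 to 0.30 over all 14632 genes tested. The markers of trophoblast, a cell type known for Peg10, summed to 6.72 to 7.90 RPM in MEFs, 7.46 to 8.97 RPM in TX 2i ESCs and 6.40 to 11.4 RPM in M KSR3. They summed to 21.0 to 44.2 RPM in F KSR4, 19.1 to 41.3 RPM in M KSR5 and 6.05 to 32.0 RPM in F KSR2, and their part in the Peg10 level was not tested. In bulk RNA, fewer cells of a type and less RNA per cell cannot be told apart.

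**Figure D1:**
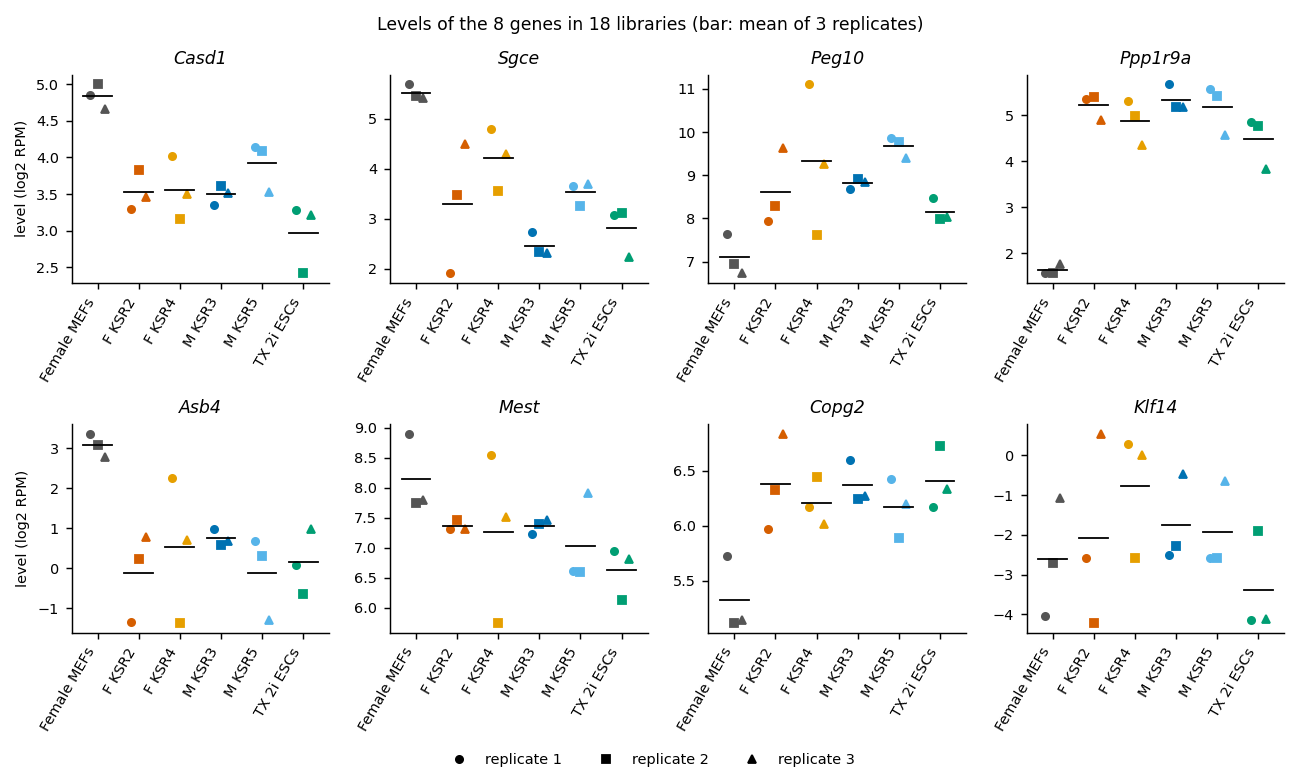
Level of each of the 8 genes (vertical axis, log2 RPM, a separate scale per gene) in the 3 libraries of each group (horizontal axis), with points by replicate and a bar at the mean of 3. Peg10, Ppp1r9a and Copg2 lie higher in most pluripotent libraries than in MEFs, and Casd1, Sgce and Asb4 lie lower.

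No read of the maternal Peg10 copy was detected in MEFs, and each of the 15 pluripotent libraries held 340 or more. MEF replicates 1, 2 and 3 held 0 maternal reads out of 637, 455 and 340 allelic reads, which allows a maternal share of up to 0.471%, 0.659% and 0.882%. In F KSR4 the maternal share was 44.5%, 45.8% and 30.2%. M KSR3 gave 45.5%, 37.4% and 38.7%, and M KSR5 gave 29.8%, 27.5% and 40.1%. In TX 2i ESCs it was 54.8%, 50.9% and 47.2%, so that the maternal copy gave close to equal reads there, while in the iPSC lines the paternal copy gave more in each of the 9 libraries. Over the 9 libraries of F KSR4 and the male lines the mean share was 37.7% ± 7.08 (SD, n = 9) against 0% in 3 MEF libraries. An exact two-sided permutation test gave p = 0.00909, the smallest p this design can give. The 9 libraries come from 3 lines and the MEFs from 1 embryo. In this and the later permutation tests the p thus does not measure the spread between lines or embryos.

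Reads of each copy, scaled to all reads on genes (RPM), show which copy moved. Paternal Peg10 reads were 29.0 ± 11.7 RPM (SD, n = 3) in MEFs and 30.5 ± 4.93 in TX 2i ESCs, while F KSR4 had 121 ± 115, M KSR3 56.8 ± 5.83 and M KSR5 115 ± 26.4. Maternal reads were 32.4 ± 9.89 RPM in TX 2i ESCs, and F KSR4 had 86.9 ± 98.6, M KSR3 38.6 ± 2.95 and M KSR5 53.8 ± 4.18. Lower bounds of the fold took each MEF library at the 3 reads that a count of 0 allows, and the mean of the other group. They allow for the MEF count and not for the spread between libraries of a group. Mean maternal Peg10 reads were higher by at least 484-fold for F KSR4, 215-fold for M KSR3, 299-fold for M KSR5 and 180-fold for TX 2i ESCs. Without F KSR4 replicate 1 the bound for F KSR4 was 168-fold. The paternal copy rose in M KSR5 (log2 difference 2.03, limma adjusted p = 0.015, and adjusted p = 0.050 without MEF replicate 3). The other differences did not pass, at 1.60 in F KSR4 (limma adjusted p = 0.052), 1.04 for M KSR3 and 0.13 for TX 2i ESCs (interval -1.28 to 1.54). Without F KSR4 replicate 2 that of F KSR4 was 2.41 (limma adjusted p = 0.0036), and it also passed without MEF replicate 1, without F KSR2 replicate 2 or 3, and with 2 reads added to each copy (adjusted p = 0.040).

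**Figure D2:**
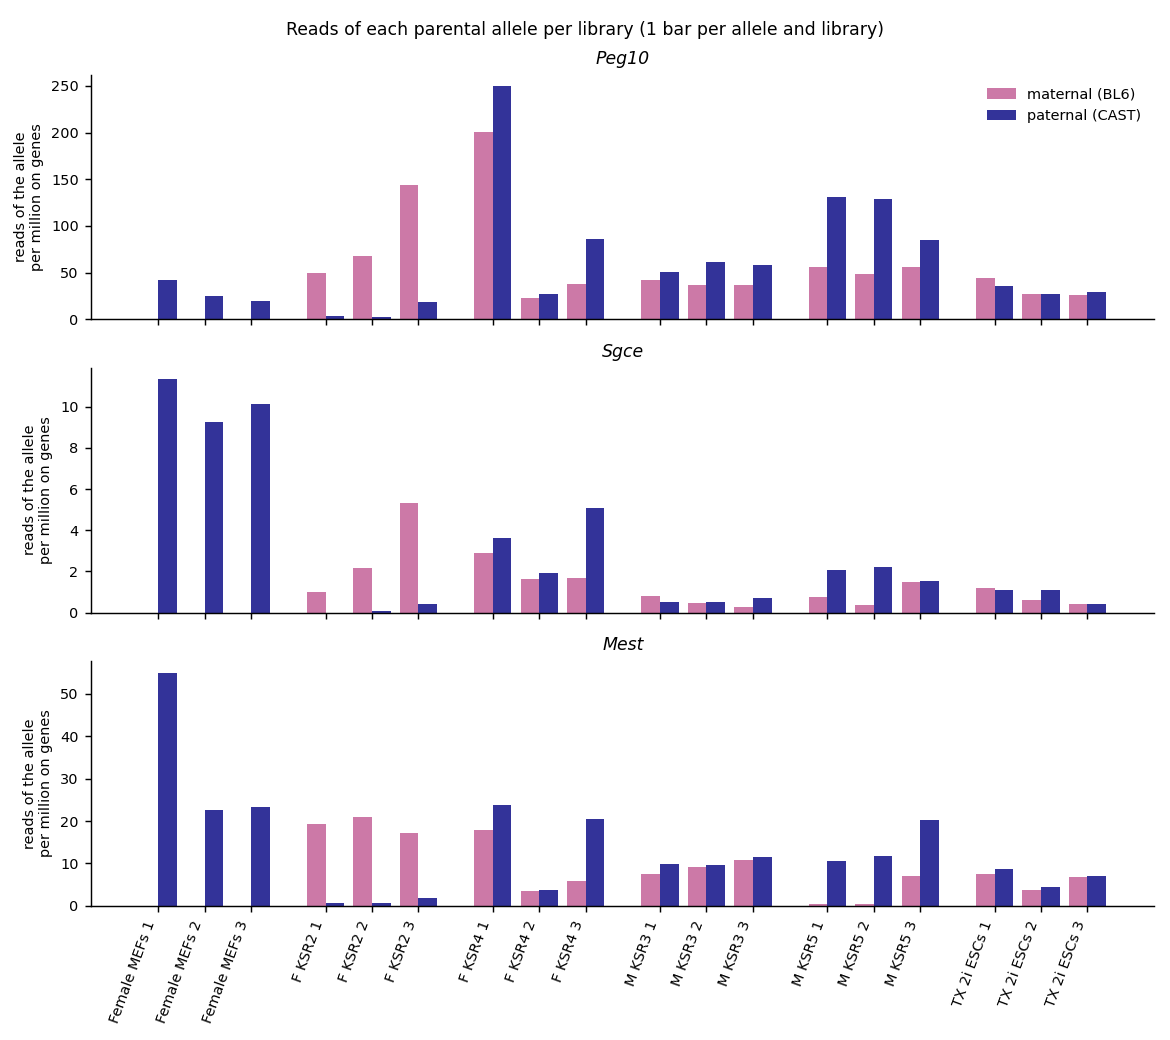
Reads of the maternal (BL6) and paternal (CAST) copy of Peg10, Sgce and Mest in RPM (vertical axis, linear, from 0) in each of the 18 libraries (horizontal axis). MEF libraries show paternal reads with 0 or 1 maternal read, F KSR2 libraries are mostly maternal, and the other groups hold both copies except for Mest in M KSR5 replicates 1 and 2, where maternal reads are few.

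Sgce, which encodes epsilon-sarcoglycan of the dystrophin-associated complex, starts 101 bases from Peg10 on the other strand, and its level moved the other way. It stood at log2 RPM 5.69, 5.46 and 5.42 in MEFs, above every pluripotent library. F KSR4 lay at 4.80, 3.55 and 4.30, M KSR3 at 2.74, 2.33 and 2.32, and M KSR5 at 3.65, 3.26 and 3.69. TX 2i ESCs lay at 3.07, 3.12 and 2.24, and F KSR2 at 1.91, 3.46 and 4.50, a range that held the lowest and nearly the highest pluripotent value. Against MEFs Sgce fell by 3.06 on the log2 scale for M KSR3 (limma, SE 0.47, adjusted p = 2.1e-05) and by 2.71 for TX 2i ESCs (adjusted p = 7.6e-05). It fell by 2.23 for F KSR2, by 1.99 for M KSR5 and by 1.31 for F KSR4 (limma adjusted p = 0.0005, 0.0013 and 0.022). The F KSR4 call was lost without MEF replicate 1 or F KSR4 replicate 2 (limma adjusted p = 0.057 and 0.098).

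Sgce, like Peg10, had no maternal read in MEFs and held both copies in the 4 groups other than F KSR2, on fewer reads. MEFs held 0 maternal reads out of 171, 166 and 176, which allows up to 1.75%, 1.81% and 1.70%. The maternal share was 44.3%, 45.3% and 24.7% in F KSR4, 60%, 47.1% and 26.7% in M KSR3, and 26.7%, 14.6% and 48.9% in M KSR5. TX 2i ESCs gave 52.8%, 35.7% and 50%, and the pluripotent libraries of these 4 groups held 12 to 106 allelic reads each. The mean over the 9 iPSC libraries was 37.6% against 0% in MEFs (exact permutation test, two-sided p = 0.00909). On the same lower bound, mean maternal Sgce reads were higher by at least 11.5-fold for F KSR4, 2.83-fold for M KSR3, 4.85-fold for M KSR5 and 4.12-fold for TX 2i ESCs. Without replicate 1 the bound was 9.13-fold for F KSR4, 1.99-fold for M KSR3 and 2.83-fold for TX 2i ESCs. For M KSR5 it was 3.14-fold without replicate 3. The M KSR3 bound rested on 24 maternal reads. The paternal copy fell by 4.07 on the log2 scale for M KSR3, by 2.39 for M KSR5 and by 3.64 for TX 2i ESCs (limma adjusted p = 5.1e-05, 0.0052 and 0.00017). In F KSR4 the paternal difference of -1.62 had a limma adjusted p of 0.048 that was lost in 14 of the 18 fits that left out 1 library, up to 0.16 without F KSR4 replicate 2.

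Mest, which encodes an alpha/beta-hydrolase fold protein also known as Peg1, was the most abundant of the 8 genes per length in MEFs, at 77.2 ± 37.9 RPM per kb (SD, n = 3) against 21.4 ± 7.32 for Peg10. Its level was log2 RPM 8.90, 7.74 and 7.80 in MEFs. F KSR4 lay at 8.54, 5.75 and 7.51, M KSR3 at 7.23, 7.40 and 7.46, and M KSR5 at 6.61, 6.60 and 7.91. F KSR2 lay at 7.31, 7.46 and 7.31 and TX 2i ESCs at 6.94, 6.13 and 6.82. F KSR4 replicate 1 and M KSR5 replicate 3 overlapped the MEFs, and all other pluripotent libraries lay below the lowest MEF library. Against MEFs Mest fell by 1.51 in TX 2i ESCs (limma, SE 0.51, adjusted p = 0.014), a call lost without MEF replicate 1 or TX replicate 2 (adjusted p = 0.074 and 0.064). For F KSR2 and F KSR4 the differences were -0.79 and -0.88, and for M KSR3 and M KSR5 -0.78 and -1.11, and they did not pass (limma adjusted p = 0.18, 0.14, 0.18 and 0.062). Without M KSR5 replicate 3 the M KSR5 difference was -1.54 (limma adjusted p = 0.019), and it also passed without F KSR4 replicate 2 (adjusted p = 0.011) and with median-ratio scaling (adjusted p = 0.022). Without F KSR4 replicate 1, which held the highest Mest level of its line, the F KSR4 difference was -1.52 and that of M KSR5 also passed (limma adjusted p = 0.0095 and 0.026).

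Both Mest copies gave reads in all pluripotent groups other than F KSR2, with a maternal share near 50% in M KSR3 and TX 2i ESCs and a low one in M KSR5. MEFs held 1, 0 and 0 maternal reads out of 831, 405 and 404. In M KSR3 the maternal share was 43.8%, 49.1% and 48.5%, and in TX 2i ESCs 45.9%, 45.9% and 49.3%. F KSR4 gave 42.8%, 49.1% and 22.0%. M KSR5 gave 3.41% (interval 1.57 to 7.24) and 4.19% (2.14 to 8.05) in replicates 1 and 2 and 25.8% (21.9 to 30.2) in replicate 3. The intervals of replicates 1 and 2 lay above every upper limit in MEFs and below every other pluripotent library. Over the 9 iPSC libraries the mean was 32.1% against 0.0401% in MEFs (exact permutation test, two-sided p = 0.00909). Maternal Mest reads were 6.04 ± 2.02 RPM (SD, n = 3) in TX 2i ESCs, and F KSR4 had 9.08 ± 7.67, M KSR3 9.23 ± 1.59 and M KSR5 2.64 ± 3.81. Against the 1 maternal read in MEFs these are ratios of 301 (95% counting interval 53.6 to 11935), 477 (85.1 to 18877), 467 (83.4 to 18488) and 131 (23.1 to 5219). Of the 123 maternal reads in M KSR5, 109 were in replicate 3, and without it the ratio was 22.2 (3.37 to 938). Without F KSR4 replicate 1 that of F KSR4 was 233 (41.1 to 9279). Paternal Mest fell by 2.23 on the log2 scale in TX 2i ESCs and by 1.58 in M KSR3 (limma adjusted p = 0.0028 and 0.024). The M KSR3 call was lost without MEF replicate 1 or M KSR3 replicate 1 or 2 (limma adjusted p = 0.11, 0.056 and 0.059). The paternal differences of -1.32 for F KSR4 and -1.18 for M KSR5 had the same sign and did not pass (limma adjusted p = 0.056 and 0.082), and without F KSR4 replicate 2 that of M KSR5 did (adjusted p = 0.016). That of F KSR4 passed without any 1 of its own replicates 1 and 3 or F KSR2 replicate 3, and with 2 reads added (adjusted p = 0.018 to 0.045).

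Of the 8 genes, 5 had at least 10 allelic reads in every library, and their log2 ratio of maternal to paternal reads was tested. Peg10, Sgce and Mest were called in F KSR4, both male lines and TX 2i ESCs, and Casd1 and Copg2 in none, so 3 of 5 were called in each group. Against MEFs limma called 12.2% of 8055 genes for F KSR4, 22.3% for M KSR3, 11.1% for M KSR5 and 18.7% for TX 2i ESCs. The ratio of Peg10 rose by 8.78 to 9.91 (limma, SE 0.36, largest adjusted p = 2.5e-12), that of Sgce by 7.11 to 8.20 (SE 0.57, largest adjusted p = 4.9e-08) and that of Mest by 5.92 in M KSR5 to 9.31 in M KSR3 (SE 0.62, largest adjusted p = 6.4e-07). These differences depend on the 0.5 read added to each copy, since MEFs held almost no maternal read. They kept their call without each single library.

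**Figure D3:**
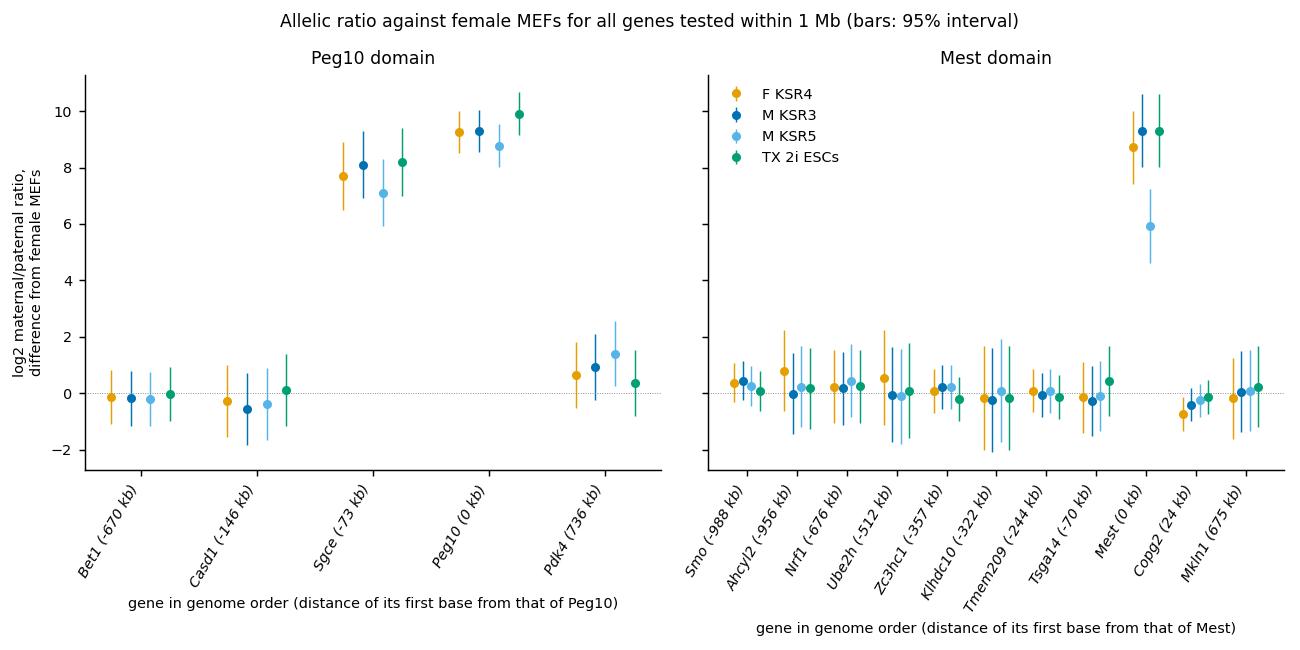
Difference from female MEFs in the log2 ratio of maternal to paternal reads (vertical axis, with 95% intervals) for the 16 genes tested within 1 Mb of Peg10 (left) and Mest (right), in genome order with distances in kb, with points for F KSR4, M KSR3, M KSR5 and TX 2i ESCs. Sgce, Peg10 and Mest lie between 5.92 and 9.91, and the other 13 genes between -0.73 and 1.40.

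Between lines the allelic ratio was compared in 6 pairs of groups for the same 5 genes, and 4 of 30 differences passed. Over all genes 7.66 to 24.7% were called in these pairs, so the count was near the background. Mest in M KSR3 exceeded M KSR5 by 3.39 (limma, SE 0.62, adjusted p = 0.00077) and M KSR5 differed from TX 2i ESCs by -3.38 (adjusted p = 0.00052). The backgrounds of these pairs were 14.3% and 15.6% of all genes, and the largest adjusted p over the alternatives was 0.0075 and 0.0055. F KSR4 exceeded M KSR5 at Mest by 2.79 (limma adjusted p = 0.0061, background 7.66%), a call lost without M KSR5 replicate 1 or replicate 2 (adjusted p = 0.057 and 0.054, range over the alternatives 5.2e-08 to 0.057). Peg10 in M KSR5 differed from TX 2i ESCs by -1.13 (limma, SE 0.36, adjusted p = 0.039). Over the alternatives its adjusted p ran from 0.0025 to 0.17, and it was lost without any 1 of M KSR3 replicate 3, M KSR5 replicate 1 or 2 and each TX replicate. Of the other pairs, F KSR4 against M KSR3, F KSR4 against TX and M KSR3 against TX gave 0 calls by limma among the 5 genes, and 0, 1 and 0 at an unadjusted p below 0.05, against backgrounds of 12.0%, 11.4% and 24.7%. At Peg10 M KSR3 exceeded M KSR5 by 0.52 (interval -0.24 to 1.27, limma adjusted p = 0.53). At Sgce M KSR5 differed from TX 2i ESCs by -1.09 (limma adjusted p = 0.27), and without M KSR5 replicate 3 by -1.72 (adjusted p = 0.048).

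Libraries of 1 line were not alike at these genes. F KSR4 replicate 3 had the lowest maternal share of its line at Peg10, Sgce and Mest, with 30.2%, 24.7% and 22.0% against 42.8 to 49.1% in the other libraries of the line. M KSR5 replicate 3 had the highest of its line at all 3 genes, with 40.1%, 48.9% and 25.8% against 3.41 to 29.8%. The other genes of chromosome 6 gave 52.0% and 53.0% in these libraries, the lowest and the highest of the 9 libraries. In M KSR5 replicate 3 the median level of the fibroblast markers was 1.13% of the MEF level against 0.0916% and 0.382% in replicates 1 and 2. Their summed level was 2.87% against 2.46% and 1.51%. That library also had the highest trophoblast, endoderm and mesoderm marker sums of its line, at 41.3, 40.2 and 25.8 RPM. Its neural marker sum of 110 RPM lay between those of replicates 1 and 2, at 84.2 and 126 RPM. The part of these cell types in the Mest level was not tested.

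**Figure D4:**
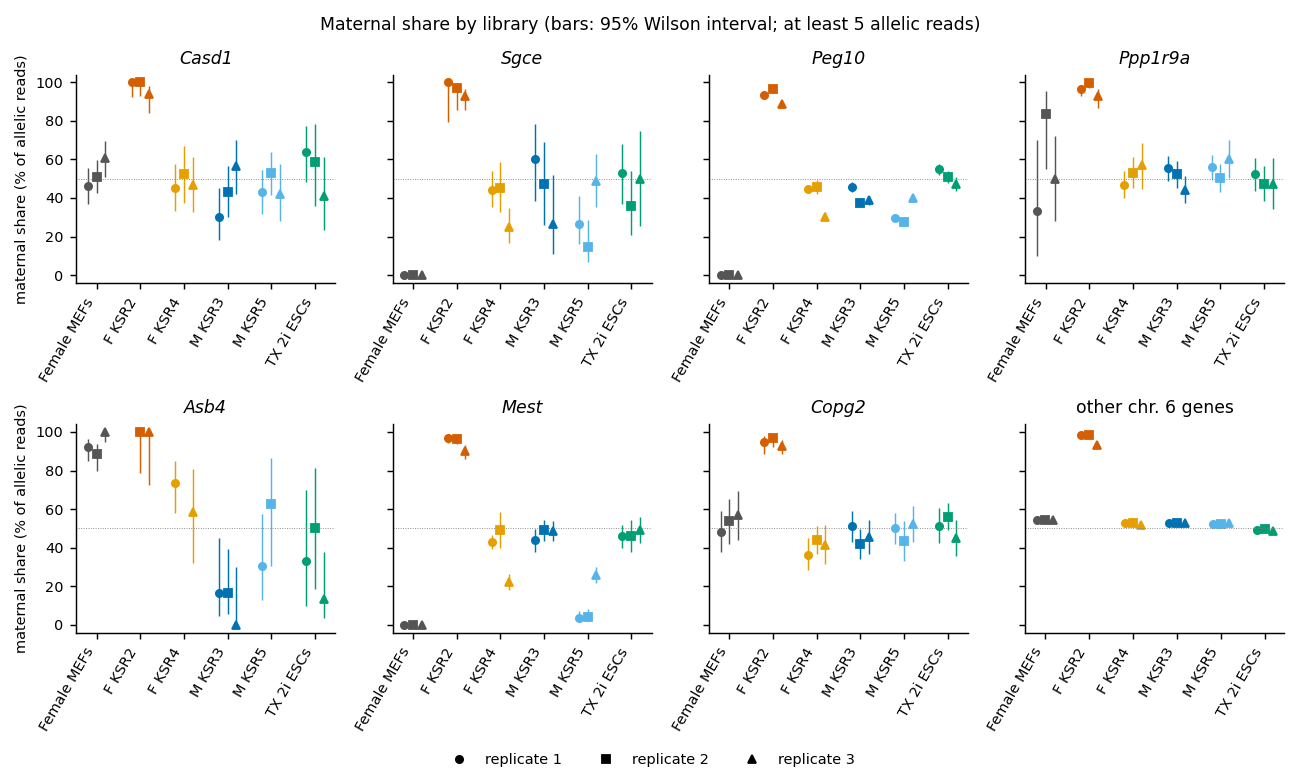
Maternal share of allelic reads (vertical axis, %) in each library with at least 5 allelic reads, by group (horizontal axis) and replicate (point shape), with 95% Wilson intervals and a dotted line at 50%, for 7 of the 8 genes and for the sum of the other genes of chromosome 6. Peg10, Sgce and Mest lie at or near 0% in MEFs and between 3.41% and 60% in F KSR4, M KSR3, M KSR5 and TX 2i ESCs, and F KSR2 lies at 88.8% or above for every gene shown.

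Among the other 5 genes, Casd1 and Copg2 gave near-equal reads of both copies in MEFs, Asb4 was mainly maternal, and Ppp1r9a and Klf14 had too few allelic reads there. Casd1, a sialic acid O-acetyltransferase, stood at log2 RPM 4.85, 5.00 and 4.65 in MEFs and at 2.42 to 4.14 in the 15 pluripotent libraries, which did not overlap the MEFs. It fell by 0.92 in M KSR5 to 1.86 in TX 2i ESCs (limma, SE 0.29, largest adjusted p = 0.0091), the M KSR5 call being lost without its replicate 3 (adjusted p = 0.051). Its maternal share was 46.2%, 51.1% and 60.6% in MEFs and 30 to 64.1% in the 12 libraries of the 4 groups with both copies. Over the 9 iPSC libraries the mean was 45.7% against 52.6% (exact permutation test, two-sided p = 0.209).

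Ppp1r9a, which encodes the actin-binding scaffold neurabin-1, showed the largest rise among the 8 genes. It stood at log2 RPM 1.58, 1.56 and 1.77 in MEFs and at 3.84 to 5.68 in the pluripotent libraries, with no overlap. The log2 difference was 2.84 in TX 2i ESCs to 3.70 in M KSR3 (limma, SE 0.32, largest adjusted p = 4.7e-07). Outside F KSR2 its maternal share in the pluripotent libraries was 44.1 to 60.4%. MEFs gave 33.3%, 83.3% and 50% on 6, 12 and 16 reads, too few to show a bias. Both copies rose, the paternal one by 3.48 to 4.50 and the maternal one by 3.01 to 4.13 in these 4 groups.

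Asb4, a subunit that brings substrates to a ubiquitin ligase, was the only one of the 7 genes with allelic reads that was mainly maternal in MEFs. It held 84 maternal and 7 paternal reads in MEF replicate 1, 70 and 9 in replicate 2, and 67 and 0 in replicate 3, shares of 92.3%, 88.6% and 100%. Its level fell from log2 RPM 3.36, 3.08 and 2.78 in MEFs to between -1.37 and 2.25 in the pluripotent libraries. The log2 difference was -2.33 in M KSR3 to -3.19 in F KSR2 (limma, SE 0.77, largest adjusted p = 0.013), and in F KSR4 the call was lost without its replicate 2 (adjusted p = 0.052). The remaining reads were few, and mainly paternal in M KSR3, with 2 maternal and 10 paternal reads in replicate 1, 3 and 15 in replicate 2, and 0 and 9 in replicate 3. Summed over libraries, 7 of 27 Asb4 reads were maternal in TX 2i ESCs, 11 of 23 in M KSR5 and 36 of 54 in F KSR4. TX 2i ESCs replicate 3 held 2 maternal and 13 paternal reads. F KSR4 replicate 1, the library with the most Asb4 reads outside MEFs, held 28 maternal and 10 paternal reads. Over 7 iPSC libraries with at least 5 allelic reads the mean share was 36.9% against 93.6% in MEFs (exact permutation test, two-sided p = 0.0167, the smallest this comparison allows). With 2 MEF libraries the smallest p possible is 0.0556, so leaving out a MEF library cannot test this. The log2 difference of the maternal copy was -3.24 for F KSR4, -5.43 for M KSR3, -4.13 for M KSR5 and -4.62 for TX 2i ESCs (limma, largest adjusted p = 0.0053). The paternal differences, 1.02, 1.88, -0.28 and 0.96, did not pass (limma, SE 1.05, smallest adjusted p = 0.13).

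Copg2, which encodes a subunit of the COPI vesicle coat, overlaps the end of Mest and did not share its bias. It stood at log2 RPM 5.73, 5.12 and 5.15 in MEFs and at 5.89 to 6.84 in all 15 pluripotent libraries, with no overlap. It rose by 0.84 in M KSR5 to 1.08 in TX 2i ESCs (limma, SE 0.23, largest adjusted p = 0.0044). Its maternal share was 48.1%, 53.8% and 57.1% in MEFs, and 36.2%, 43.8% and 41.4% in F KSR4, the lowest group. M KSR3 gave 51.0%, 41.7% and 45.5%, M KSR5 50%, 43.4% and 52.4%, and TX 2i ESCs 51.3%, 56.1% and 44.9%. The mean over the 9 iPSC libraries was 45.0% against 53.0% (exact permutation test, two-sided p = 0.0545, which fell below 0.05 without MEF replicate 1, M KSR3 replicate 1, or M KSR5 replicate 1 or 3, with p = 0.0364 to 0.0485). Of the 7 genes with enough reads, 4 had a p below 0.05 in this permutation test, namely Peg10, Sgce, Mest and Asb4. The test was run on these genes alone, so no share over all genes stands beside this count. Klf14, a zinc-finger transcription factor without introns, held 0 to 24 reads per library, passed log2 RPM 0 in 3 libraries and had fewer than 5 allelic reads in every library, so its allelic use was not measurable at this depth.

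Counted by copy over the 7 genes tested, limma called 6 for the maternal copy in both female lines and M KSR5, against 59.8% of all genes for F KSR2, 57.3% for F KSR4 and 59.4% for M KSR5. It called 7 for M KSR3 and TX 2i ESCs, against 61.1% and 58.0%. The maternal copies of Peg10, Sgce, Mest and Ppp1r9a rose in every group, and that of Asb4 fell in every group. For the paternal copy 3 were called in F KSR4 and M KSR5, 4 for M KSR3 and 5 for TX 2i ESCs, against 55.3%, 59.2%, 58.2% and 56.9% of all genes. Paternal Ppp1r9a rose in all 4 groups and paternal Sgce fell in M KSR3, M KSR5 and TX 2i ESCs, the F KSR4 call for Sgce being lost in most fits that left out a library.

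F KSR2, whose chromosome 6 reads were 93.3 to 98.7% maternal, held few reads of the paternal copy from which MEFs transcribe Peg10, Sgce and Mest, and still transcribed all 3. Its maternal Peg10 reads were 87.0 ± 50.4 RPM (SD, n = 3). On the bound used above, which leaves out the spread between libraries, this was at least 485-fold above MEFs and at least 325-fold without replicate 3. Maternal Sgce was at least 15.7-fold above MEFs, and at least 8.75-fold without replicate 3, which held most of its reads. Maternal Mest was 19.2 ± 1.82 RPM. Against the mean of F KSR4 and the 2 male lines, limma called 0 of the 8 genes by level, and 0 at an unadjusted p below 0.05, where 3.67% of all genes were called. The Peg10 difference was -0.65 (interval -1.66 to 0.35), that of Mest 0.14 (-0.74 to 1.01) and that of Sgce -0.11 (-0.93 to 0.70). Without F KSR2 replicate 3 they were -1.16, 0.16 and -0.72, and did not pass (limma adjusted p = 0.33, 0.93 and 0.42).

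A small paternal remainder was present in F KSR2. Paternal reads made up 6.64% (interval 5.11 to 8.59), 3.34% (2.44 to 4.55) and 11.2% (9.97 to 12.5) of Peg10 reads in replicates 1, 2 and 3, where the other genes of chromosome 6 gave 1.40%, 1.34% and 6.73%. For Mest they were 3.31% (1.81 to 5.99), 3.68% (2.16 to 6.20) and 9.86% (6.91 to 13.9). In all 3 libraries the intervals of both genes lay above the chromosome's value. The intervals of Copg2 and Ppp1r9a did so in replicate 1 (5.05%, 2.18 to 11.3, and 3.39%, 1.56 to 7.20) and not in replicates 2 and 3. Sgce gave 0%, 2.78% and 7.06% on 15, 36 and 85 reads, with intervals of 0 to 20.4, 0.49 to 14.2 and 3.28 to 14.6 that held the chromosome's value. Casd1 held 0 paternal reads out of 48 and 52 in replicates 1 and 2, which gives intervals up to 7.41% and 6.88%, and 3 of 51 in replicate 3, so its share could not be told from that of the chromosome.

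The mean of these 3 lines was also set against TX 2i ESCs, where limma called 23.2% of all genes and 1 of the 8. Casd1 was 0.69 higher in the iPSCs (limma, SE 0.23, adjusted p = 0.042), a call lost without any 1 of F KSR4 replicate 1, M KSR3 replicate 2 or 3, M KSR5 replicate 1 or 2, or TX replicate 2 or 3 (adjusted p over all alternatives 0.017 to 0.31). Peg10 was 1.11 higher (interval 0.11 to 2.11, limma adjusted p = 0.10) and Ppp1r9a 0.65 higher (adjusted p = 0.079). Without F KSR4 replicate 2, the library with the lowest Peg10 and Mest of its line, both Peg10 and Mest passed (limma adjusted p = 0.0068 and 0.044). Ppp1r9a passed without F KSR4 replicate 3 or M KSR5 replicate 3 (limma adjusted p = 0.037 and 0.032). Between the 6 female and 6 male iPSC libraries limma called 0 of the 8 genes, and 0 at an unadjusted p below 0.05, against 6.24% of all genes. The largest difference was that of Sgce, 0.75 higher in female lines (interval -0.02 to 1.53, limma adjusted p = 0.24), which passed without F KSR2 replicate 1 (difference 1.10, adjusted p = 0.037). These fits rest on the spread between libraries of a line. With 2 lines per sex, each sex from 1 embryo, their p-values do not measure a difference between the sexes.

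In the order of levels per length, MEFs ran Mest, Peg10, Copg2, Casd1, Sgce, Asb4, Ppp1r9a and Klf14, from 77.2 to 0.0749 RPM per kb. In the pluripotent groups the mean of Peg10 came first, at 43.4 RPM per kb in TX 2i ESCs to 151 in F KSR4, and Mest second, at 25.9 in TX 2i ESCs to 51.3 in F KSR4. Peg10 exceeded Mest in each library of these groups except F KSR2 replicate 1, with 36.6 against 40.1 RPM per kb. In F KSR2 without replicate 3 the means were 41.7 for Peg10 and 42.5 for Mest, so their order turned.

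Around both domains, 45 other genes started within 1 Mb of Peg10 or Mest. Of 11 that could be tested for the allelic ratio, limma called 0 against MEFs in any of the 4 groups and 0 in any pair of lines. The largest difference was that of Pdk4, a kinase that restrains pyruvate dehydrogenase, at 1.40 in M KSR5 (adjusted p = 0.13), the only one of 44 with an unadjusted p below 0.05. By level 23 genes were tested, a set that also held Calcr and Dlx5, reported genes that start more than 1 Mb away. Both were above log2 RPM 0 in only 3 libraries, and Tfpi2, Gng11 and 1700023L04Rik in only 4, 4 and 3. The means of Dlx5 and Tfpi2 passed 0 in MEFs alone, so the filter favoured a lower call for them. Of the 23, 18 were called in F KSR4 and 16 in each other group, with 9 lower in each group. The filter can raise this count of lower calls. The backgrounds were 65.8% for F KSR4 and 66.5 to 67.9% for the others. Those that fell included Pon2 and Pon3, paraoxonases reported as maternally biased, by 2.71 to 4.14 and 2.72 to 3.80 on the log2 scale (limma, largest adjusted p = 0.0012).

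Across the 15 pluripotent libraries the genes whose level was most like that of Peg10 were Zfp473, Hmgxb4 and Igsf9, with Pearson correlations of 0.87, 0.85 and 0.85. For Mest they were Lpar6, Ryr3 and Yipf5, at 0.95, 0.91 and 0.88. These are descriptions over 15 libraries that fall into 5 lines of 3 libraries each, out of 14631 genes. Sgce, which shares the promoter region of Peg10, had a correlation of 0.65 with it and ranked 380, Casd1 had 0.71 and ranked 151, and Mest had 0.60 and ranked 720.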

How the data were processed

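RNA-seq of 18 libraries (6 groups of 3) was analysed. The IMPLICON methylation samples of the series were not analysed here. Per the paper's methods and the submitters' processing notes, RNA with a RIN above 9 was made into strand-specific polyA libraries, and reads were trimmed with Trim Galore 0.6.1, aligned to GRCm38 with HISAT2 2.1.0, split by BL6 and CAST sequence differences and counted on genes with SeqMonk. The values the authors deposited are log2 RPM (reads scaled to a common library total), per library, for all, unassigned, maternal and paternal reads. They scale with no gene length, and genes without reads are held at 0.9 read. Whole reads were recovered (99.97 to 100% of values within 0.05 read). Replicates of a group differed by 2.89 to 60.4 times the counting noise, so none was counted as a repeat of another. P-values of the fits rest on the spread between the 3 samples of each line. The permutation tests of the maternal share treat 9 libraries of 3 lines as 9 samples, against MEFs of 1 embryo, so their p-values do not measure the spread between lines or embryos.

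Levels were fitted with limma 3.58.1 (R 4.3.3, intensity trend) on the deposited log2 values over genes above 0 in at least 3 libraries. Allelic ratios were fitted on log2 of maternal over paternal reads, 0.5 read added to each, over genes with at least 10 allelic reads in every library, and single copies on log2 RPM of that copy over genes with at least 5 reads of that copy in 3 libraries. P-values were adjusted by Benjamini-Hochberg over all genes tested, with a threshold of 0.05. Maternal shares used libraries with at least 5 allelic reads and exact permutation tests (scipy 1.17.1). A 0 was read as allowing up to 3 reads. The procedures were tested on simulated data. Named genes were the 8 genes, those that start within 1 Mb of Peg10 or Mest, 11 genes reported near these domains (10 were in the table, Cep41 as Tsga14), and the 3 genes with a level most like Peg10 or Mest. The members and lists were chosen with earlier results of these data known. Alternatives were log2(RPM + 1), no filter, median-ratio scaling, limma-voom on recovered reads, the deposited allele values, 2 reads added, a replicate block, F KSR4 alone for the female lines, each library left out, and, chosen after seeing the data, F KSR2 replicate 3 and M KSR5 replicate 3 set aside together.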

Additional observations from a re-analysis of the deposited data

Results flagged for a closer look

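The Asb4 level in M KSR5 replicate 3, at log2 RPM -1.30, lay far from the other 5 libraries of the male iPSC lines, which ran from 0.30 to 0.98. It was 1 of 23 groups of values examined for a library far from the rest, and chance gives about 1 in 20. The gene held 7 reads in that library.

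The allelic ratio differed between lines in 4 of 30 comparisons of 3 against 3 libraries. That count is near the background, since 7.66 to 24.7% of all genes were called in these pairs of groups. At Mest, F KSR4 exceeded M KSR5 by 2.79 on the log2 scale, M KSR3 exceeded M KSR5 by 3.39, and M KSR5 differed from TX 2i ESCs by -3.38. At Peg10, M KSR5 differed from TX 2i ESCs by -1.13. The 3 Mest differences share the M KSR5 libraries and are not independent of each other.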

How the results depend on the processing

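Against MEFs, 30 of 40 level calls were made, 29 to 31 under the other settings, 29 of 35 with F KSR2 replicate 3 and M KSR5 replicate 3 set aside, and 28 to 33 with 1 library left out. The iPSCs against TX 2i ESCs gave 1 call, 0 without the filter on low values, 2 with the replicate block, 2 with the pair of libraries set aside and 0 to 3 with 1 library left out. F KSR2 against the other lines gave 0 throughout, and female against male lines gave 0, with 0 to 1 when 1 library was left out. The 12 allelic ratio calls against MEFs were made under every setting (16 of 28 with the minimum lowered to 1 read, which tested more genes), between lines 4 became 6 with the deposited allele values or the pair set aside and 2 to 5 with 1 library left out, calls of single copies were 47 of 63 with 47 to 51 under the other settings and 41 to 51 with 1 library left out, and the maternal share gave 4 of 7, 5 with the deposited allele values or the pair set aside and 3 to 5 with 1 library left out. Of 3843 single values recomputed, 3728 kept their side of the threshold and direction, 63 lost and 52 gained a call, and 0 called values reversed. Another 58 changed sign while past the threshold in neither fit and are counted among the 3728. Where the library left out was outside the comparison, the difference stayed as it was and only the shared spread moved. Such values are a weaker check. For 7 maternal shares from summed allelic reads no p was computed, and they were counted as kept by the size of their shift. The cause of the lost calls was not tested.

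Over all genes, F KSR2 against the other lines gave 537 calls and 278 with the pair set aside. Female against male lines gave 849, 441 with the pair set aside and 309 with F KSR4 alone, and median-ratio scaling moved the share called higher from 42.4% to 59.7%. That scaling moved the median of all genes against MEFs by -0.25 to -0.07.

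Replicate numbers were not taken to pair the samples in the main fits. Of 45 same-numbered pairs between groups, 13 had a correlation of deviations above 0.1 (median 0.04), against 12 of 90 differently numbered pairs (median -0.01). Correlations thus ran somewhat higher in same-numbered pairs, and what these share was not tested. With the replicate block the calls were 31 of 40 for levels against MEFs, 2 for iPSCs against TX, 12 and 4 for the allelic ratio and 49 of 63 for single copies. The block added calls for the Mest level in M KSR5 (limma adjusted p = 0.042), Ppp1r9a in iPSCs against TX (0.024), paternal Peg10 in F KSR4 (0.046) and paternal Mest in F KSR4 and M KSR5 (0.030 and 0.047), lost that of paternal Sgce in F KSR4 (0.056), and changed no other call. Depth limits Klf14 in all libraries, Ppp1r9a in MEFs and Asb4 in the pluripotent libraries, where few allelic reads were found.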

Other observations

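The genes near Peg10 that were mainly maternal in MEFs kept few reads in the pluripotent groups. Pon2 stood at a mean of log2 RPM 4.38 in MEFs and 0.24 in TX 2i ESCs to 1.67 in M KSR5, and Pon3 at 3.03 in MEFs and -0.77 in M KSR5 to 0.31 in M KSR3. The mean maternal share of Pon2, over libraries with at least 5 allelic reads, was 94.3% in MEFs, 89.6% in M KSR3 and 88.1% in M KSR5, on 5 to 12 reads per library in the male lines, and that of Pon3 was 96.9% in MEFs. Pdk4 had a mean maternal share of 59.4% in MEFs and of 65.2% in TX 2i ESCs to 80.1% in M KSR5, and its level was called in 0 of 5 groups.

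Tfpi2, an inhibitor of serine proteases, had a mean maternal share of 25.5% in MEFs, and its level was 3.94 ± 1.67 there (log2 RPM, SD, n = 3), -0.97 ± 0.92 in M KSR3 and -3.05 or lower in every other group. Dlx5, a homeobox gene of bone and limb development, stood at 1.45 in MEFs and at -3.47 or lower elsewhere. Cep41, listed as Tsga14 beside Mest, was called in 0 of 5 groups by limma, with log2 differences of -0.64 to 0.20 and 0 at an unadjusted p below 0.05.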
